A study of Mus musculus with 70 samples.

Results

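Gene expression in the dorsal hippocampus after 2 days on the wheel was compared between mice with and without an earlier bout of running. The 10 libraries of the 14-7-2 group were set against the 10 of the 0-0-2 group, which makes 20 of the 70 libraries in the series. This comparison of levels does not separate a difference already present before the 2 days from a changed response to them. The response was tested as an interaction, described further on. Members were chosen by group label alone. Every mouse was a 12 week old C57BL/6J male, housed singly, and every mouse of both groups had 2 days of voluntary wheel running. The 14-7-2 mice had also had 14 days of running and then 7 days without a wheel, whereas the 0-0-2 mice had been sedentary until then, so the groups differ in the prior exercise and in nothing else that the labels name. Wheels were removed the night before a 3 min object location memory (OLM) training session that is too short to leave a long-term memory in sedentary mice, and both dorsal hippocampi were taken 1 h after training, during consolidation. Sedentary trained mice (0-0-0, 10 libraries) and mice with the prior exercise but without the 2 days of running (14-7-0, 10 libraries) serve as the reference for what each bout did alone. Tissue was collected in 2 harvest cohorts, with 5 libraries of each group in each cohort. According to the study's methods each group had a unique adapter set, while its list of read totals shows the same adapters in several lanes. That list names no groups, so the overlap of adapter and group was not tested.

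Voluntary running acts on the hippocampus through neuronal activity, growth factors, metabolism and the blood supply, and its best known molecular marker there is Bdnf, which encodes brain-derived neurotrophic factor. In the hours after training, neurons first switch on immediate early genes such as Fos and Egr1, whose products are transcription factors, and then genes for synaptic proteins. The tissue is a set of distinct cell populations, with granule cells in the dentate gyrus and pyramidal cells in CA1, CA2 and CA3, so the level of a gene in bulk RNA also follows how much of each region a dissection holds. In such samples, fewer cells of a type and less RNA per cell cannot be told apart.

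Markers of the hippocampal regions were present in both groups: all 12 granule cell markers, all 10 CA1 markers and all 10 CA3 and CA2 markers averaged at least 1 FPKM (fragments per kilobase of transcript, scaled to the mapped reads of the library). That level does not single out the hippocampus. It was also reached by 11 of 13 thalamus and 10 of 14 neocortex markers in 14-7-2, and by 12 and 11 in 0-0-2. Tissue from next to the hippocampus was present too. The summed FPKM of the choroid plexus markers ran from 92.8 to 3540 in 14-7-2 and from 63.2 to 13213 in 0-0-2, and the library numbered 9 was the highest in each group. Ttr, the transthyretin gene that defines choroid plexus epithelium, reached 2199 FPKM there in 14-7-2 and 10651 FPKM in 0-0-2. The first principal component of the 20 libraries held 25.2% of the variance and correlated with the choroid plexus score at r = 0.84. In 0-0-2, replicate 8 had the lowest granule cell score, -0.71 on the log2 scale. It also had the lowest CA3 and CA2 score of that group (-0.73) and the highest CA1 (0.52) and meninges and fibroblast (1.42) scores. In 14-7-2, replicates 3 (-0.60) and 0 (-0.50) had the lowest granule cell scores, and the other 8 libraries were at 0.10 or higher. The thalamus score was highest in the same replicate 3 in 14-7-2 (1.61) and in replicate 4 in 0-0-2 (1.11).

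Prior exercise was followed by few and small differences. Of 24346 genes listed, 12994 averaged at least 1 FPKM over the whole series and were tested on log2(FPKM + 0.1) with limma's moderated test, where the log2 difference is always 14-7-2 minus 0-0-2. At the study's own criterion, an unadjusted p under 0.05, 149 genes (1.15%) were higher and 167 genes (1.29%) were lower in 14-7-2, 316 (2.43%) in either direction, where the threshold alone would pass 649.7 genes of this many. None passed after Benjamini-Hochberg adjustment, with a smallest adjusted p of 1 by limma, and the Cyber-T form of the test, with 193 unadjusted calls, also called 0 genes after adjustment. With the replicate number as a block, limma called 707 genes without adjustment and 0 after it, and the labels do not say whether same-numbered libraries are pairs. Quantile normalization gave 173 higher and 129 lower in place of 149 and 167, so which direction holds more genes depends on the scaling. For no tested gene did the 10 libraries of one group all lie above the 10 of the other.

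The precision of this comparison is part of the result. The 95% interval of a gene's log2 difference had a median half-width of 0.19. For 11830 genes (91.0%) the whole interval lay within a 1.5-fold change in either direction, and for 12694 genes (97.7%) within a 2-fold change. Called genes had a median absolute log2 difference of 0.21. A log2 difference beyond 1 in either direction was seen for 56 genes, of which 48 were genes of small RNAs, described further on.

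**Figure D1:**
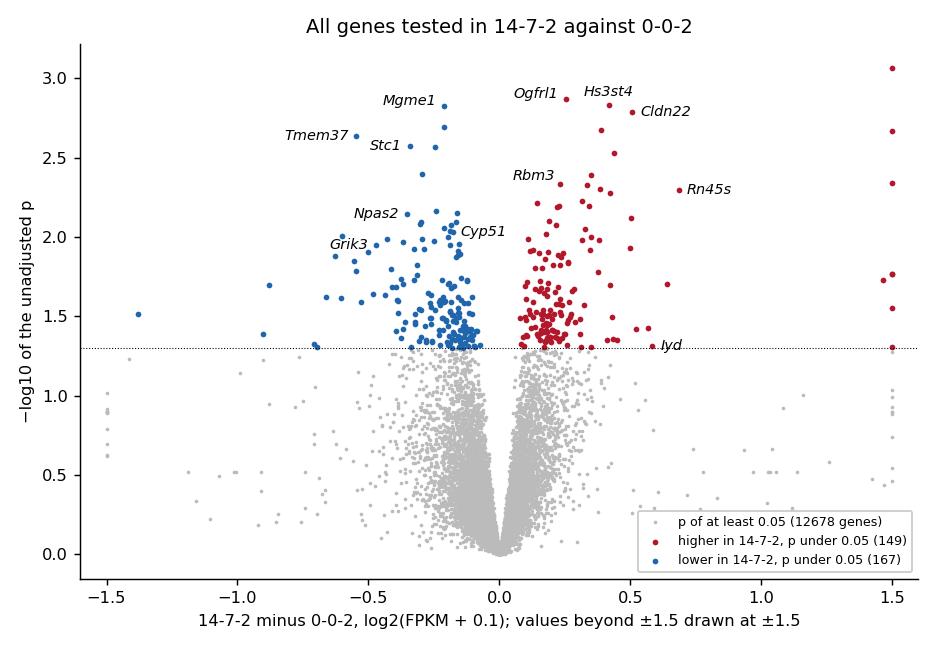
The log2 difference of each tested gene (x axis, 14-7-2 minus 0-0-2, log2(FPKM + 0.1), values beyond 1.5 in either direction drawn at 1.5) against -log10 of its unadjusted limma p (y axis), 1 point a gene. Red points are the 149 genes higher in 14-7-2 and blue points the 167 lower at p under 0.05 (dotted line). Most called genes lie within 0.5 of 0.

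The 15 leading genes that were higher in 14-7-2, all called at the unadjusted threshold and none after adjustment, differed by 0.14 to 0.69 on the log2 scale. Hs3st4 encodes a sulfotransferase that modifies heparan sulfate chains on the cell surface and is a marker of CA3 and CA2 here. Its FPKM was 48.9 at the lowest, 57.7 at the median and 83.9 at the highest in 14-7-2, and 32.8, 44.4 and 56.2 in 0-0-2, a log2 difference of 0.42 ± 0.11 (SE, n = 10 and 10, limma unadjusted p = 0.00147, adjusted p = 1). All 10 libraries of 14-7-2 lay above the 0-0-2 median, though the ranges overlapped. Ogfrl1, related to the opioid growth factor receptor, ranged from 43.2 to 67.7 FPKM (median 53.8) in 14-7-2 and from 38.4 to 51.7 FPKM (median 46.3) in 0-0-2, a log2 difference of 0.26 ± 0.07, with 9 of 10 libraries above the other median. Cpne4, a copine that binds phospholipids in the presence of calcium, differed by 0.32 on the log2 scale, with 44.8 to 80.3 FPKM in 14-7-2 and 31.0 to 54.7 FPKM in 0-0-2. Ranges overlapped for both genes.

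Several other leading higher genes encode nuclear or RNA-handling proteins. Rbm3, an RNA-binding protein induced by mild cold, ranged from 82.8 to 124 FPKM (median 116) in 14-7-2 and from 74.9 to 102 FPKM (median 93.7) in 0-0-2, a log2 difference of 0.23 ± 0.07. Lsm11, a component of the U7 particle that trims histone mRNAs, differed by 0.39 on the log2 scale, and Fancf, part of the Fanconi anaemia DNA repair complex, by 0.44. Dpf3, a subunit of a chromatin remodelling complex, differed by 0.34. Each of these 3 genes had a positive difference in both harvest cohorts. Genes called over both cohorts mostly do: 311 of the 316 (98.4%) had the same sign in each, so this adds no support. Rn45s, the precursor of ribosomal RNA, had the widest spread, with 457 to 1315 FPKM in 14-7-2 and 290 to 806 FPKM in 0-0-2. Its log2 difference of 0.69 is uncertain, since this RNA comes from many near-identical copies and the libraries were selected for poly-A RNA.

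Genes of secreted and membrane proteins were also among the 15 leading higher genes. Cldn22, a member of the claudin family of tight junction proteins, ranged from 3.13 to 5.30 FPKM (median 3.46) in 14-7-2 and from 1.302 to 3.89 FPKM (median 2.44) in 0-0-2. All 10 libraries of 14-7-2 lay above the 0-0-2 median, and the log2 difference was 0.51 ± 0.14. The ones that remain are Ccbe1 (0.35), a matrix protein of lymphatic growth, Adamts8 (0.34), a secreted metalloprotease, Rnf115 (0.14), a ubiquitin ligase, Tmem178 (0.23), and the little-described 1600029O15Rik (0.38) and Gm20257 (0.42), each given as a log2 difference.

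Of the genes lower in 14-7-2, Spon1 was called in more settings than any other named gene: in every leave-one-out fit, in each cohort alone and in every alternative fit. Each cohort is a part of the comparison that chose Spon1, so those calls are not independent of it. Spon1 encodes F-spondin, a secreted matrix protein that guides axons. It ranged from 12.6 to 17.8 FPKM (median 16.3) in 14-7-2 and from 14.96 to 21.1 FPKM (median 18.3) in 0-0-2, a log2 difference of -0.25 ± 0.07 (SE, n = 10 and 10, limma unadjusted p = 0.00269, adjusted p = 1). All 10 libraries of 14-7-2 were below the 0-0-2 median and the ranges overlapped. Without the 2 days of running the same prior exercise left Spon1 at 18.0 FPKM on average in 14-7-0 against 17.0 FPKM in 0-0-0, a log2 difference of 0.08 ± 0.09.

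Tmem37, which resembles calcium channel gamma subunits, had the largest log2 difference of the 15 leading lower genes, -0.55 ± 0.16, at low levels of 0.38 to 0.87 FPKM in 14-7-2 and 0.71 to 1.53 FPKM in 0-0-2. Npas2, a transcription factor of the circadian clock that pairs with Bmal1, ranged from 3.15 to 4.85 FPKM (median 3.78) in 14-7-2 and from 3.53 to 7.37 FPKM (median 4.71) in 0-0-2, a log2 difference of -0.35 ± 0.12. Npas2 was the 1 clock gene of 22 tested that was called, against 1.29% of all tested genes called lower. The median log2 difference of the clock list was -0.00. Stc1, a secreted regulator of calcium and phosphate, differed by -0.34 on the log2 scale. Stc1 also had a larger difference in cohort 1 (-0.58) than in cohort 2 (-0.10), where the change between cohorts was 0.48 (unadjusted limma p = 0.0113, adjusted p = 0.733).

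The other leading lower genes have varied roles. Mgme1, a nuclease that maintains mitochondrial DNA, ranged from 2.02 to 2.58 FPKM in 14-7-2 and from 2.41 to 3.09 FPKM in 0-0-2, with all 10 libraries of 14-7-2 below the other median and a log2 difference of -0.21 ± 0.06. Mettl16, an RNA methyltransferase, differed by -0.21, Nup37, a nuclear pore protein, by -0.24, and Imp4, a ribosome assembly factor, by -0.16. Cds1, which makes the phospholipid precursor CDP-diacylglycerol, differed by -0.30, Rab13, a small GTPase of membrane traffic, by -0.21, and Cd151, a tetraspanin, by -0.19. Ttc7 (-0.30), Spats2l (-0.29) and BC052040 (-0.16) complete the list, all as log2 differences.

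**Figure D2:**
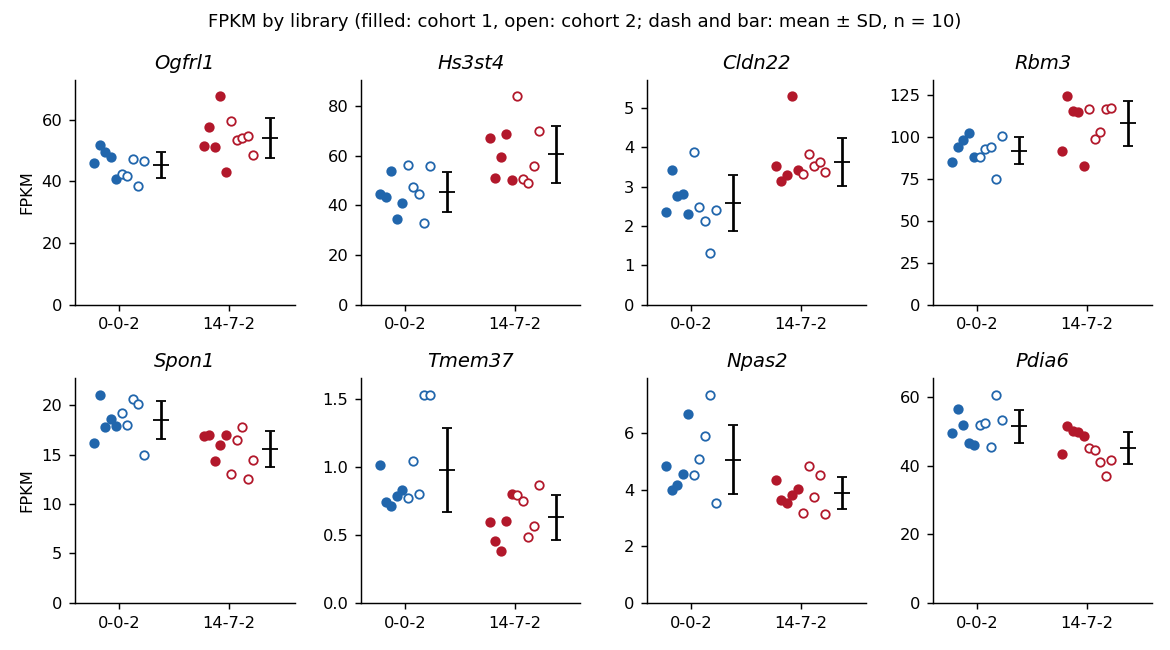
FPKM of 8 called genes in each of the 20 libraries (y axis from 0), with 0-0-2 in blue and 14-7-2 in red, filled points for harvest cohort 1 and open points for cohort 2; the dash and bar give mean ± SD (n = 10). In each panel the groups are shifted against each other and their ranges overlap, as for Cldn22 (3.13 to 5.30 FPKM against 1.302 to 3.89 FPKM).

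Most genes of cholesterol synthesis and uptake had lower values in 14-7-2 than in 0-0-2. Most of these genes encode the enzymes that build cholesterol from acetyl-CoA and the SREBP factors that control them. Of 25 tested genes 3 were called, all lower, against 1.29% of all tested genes called lower, and 24 of the 25 had a negative difference. Their median log2 difference was -0.11, where the median over all tested genes was -0.01. Cyp51, the lanosterol demethylase, ranged from 16 to 20.2 FPKM (median 17.4) in 14-7-2 and from 17.0 to 23.8 FPKM (median 20.3) in 0-0-2, a log2 difference of -0.18 ± 0.06 with all 10 libraries below the 0-0-2 median. Differences that did not pass the test included -0.14 for Msmo1, -0.11 for Hmgcs1, -0.11 for Sqle and -0.25 for Mvk. The list's median was -0.10 in cohort 1 and -0.15 in cohort 2, and from -0.14 to -0.08 when each library was left out in turn.

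The levels of these genes in the 4 groups of the design give the size of each step relative to 0-0-0. The median log2 difference from 0-0-0 over the 25 genes was 0.20 in 0-0-2, -0.17 in 14-7-0 and 0.07 in 14-7-2. These 3 values share the 0-0-0 libraries. For 17 of the 25 genes the group means ran in the order 0-0-2, 14-7-2, 0-0-0, 14-7-0 from high to low. Hmgcs1 means were 96.1 FPKM in 0-0-2, 89.4 FPKM in 14-7-2, 77.8 FPKM in 0-0-0 and 71.1 FPKM in 14-7-0. Msmo1 followed the same order, with 66.1, 60.0, 52.2 and 46.8 FPKM. As a score, the mean over the genes of the centred log2 value, 0-0-2 ran from 0.04 to 0.28 and 14-7-0 from -0.32 to -0.04 with no overlap, while 14-7-2 covered -0.28 to 0.33 and overlapped both. Leaving out 0-0-0 replicate 6, which had a granule cell score of -2.83, and 14-7-0 replicate 4 gave 0.17, -0.17 and 0.08, with 14 genes in that order. The granule cell score of 14-7-0 replicate 4 was 0.01, within the range of its group (-0.13 to 0.49). Both libraries were left out together here and below, and neither alone.

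**Figure D3:**
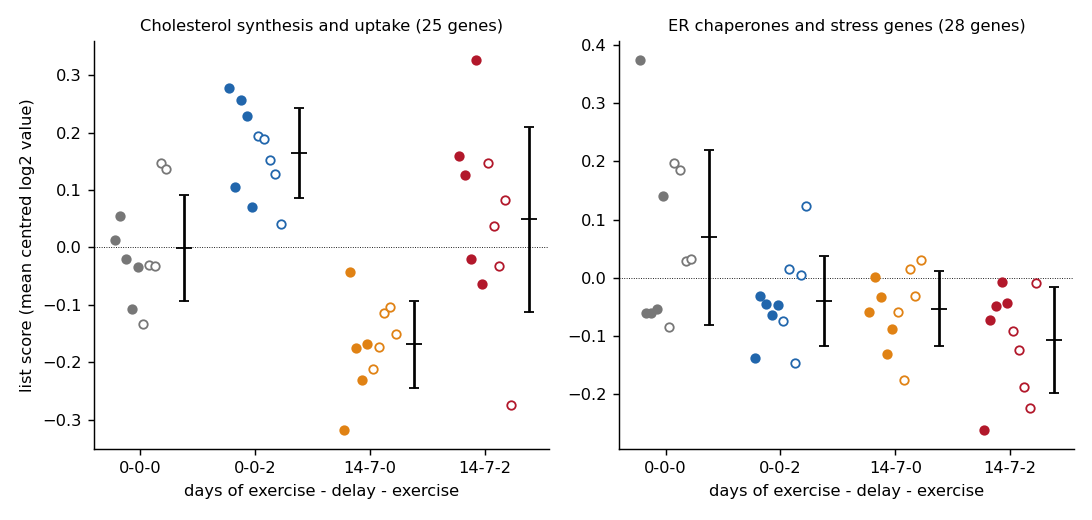
List score (y axis, mean over the genes of the centred log2(FPKM + 0.1)) of the cholesterol list (left) and the endoplasmic reticulum list (right) in each library of 4 groups (x axis), filled for cohort 1 and open for cohort 2; dash and bar give mean ± SD (n = 10). On the left, 0-0-2 lies above 14-7-0 without overlap (0.04 to 0.28 against -0.32 to -0.04), and 14-7-2 spans both; on the right, the means run from 0.07 in 0-0-0 to -0.11 in 14-7-2.

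Genes for protein folding in the endoplasmic reticulum (ER) also had mostly lower values in 14-7-2. They encode the chaperones and disulfide isomerases that fold secreted and membrane proteins, and many are controlled by the transcription factors ATF6 and XBP1 through an ER stress response element. Of 28 tested genes 24 had a negative log2 difference, with a median of -0.08, and 1 gene (Pdia6) was called lower, against 1.29% of all tested genes. The list's median was -0.02 in cohort 1 and -0.13 in cohort 2, and -0.05 without replicate 9 of 0-0-2. Pdia6, a disulfide isomerase, ranged from 36.9 to 51.4 FPKM (median 44.8) in 14-7-2 and from 45.4 to 60.6 FPKM (median 51.8) in 0-0-2, a log2 difference of -0.19 ± 0.06 (SE, n = 10 and 10, limma unadjusted p = 0.00837, adjusted p = 1). All 10 libraries of 14-7-2 lay below the 0-0-2 median. The difference was -0.04 in cohort 1 and -0.33 in cohort 2. In cohort 2 the 5 libraries of 14-7-2 ran from 36.9 to 45.0 FPKM and those of 0-0-2 from 45.4 to 60.6 FPKM. How many of all tested genes were as far apart within 1 cohort was not counted.

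The most abundant ER chaperones had values on the same side without passing the test. Hspa5, the chaperone BiP, differed by -0.15 (unadjusted p = 0.176 by limma), Calr by -0.10, Hsp90b1 by -0.12, Canx by -0.08 and Creld2 by -0.18. Mean FPKM of Hspa5 was 123 in 0-0-0, 97.8 in 0-0-2, 97.4 in 14-7-0 and 88.1 in 14-7-2. For 22 of the 28 genes the means ran from low to high as 14-7-2, 0-0-2, 0-0-0, and for 21 of 28 without the 2 libraries named above. The median log2 difference from 0-0-0 was -0.11 in 0-0-2, -0.11 in 14-7-0 and -0.18 in 14-7-2.

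The promoters were searched for the element because most of these genes lay on the same side. Promoters were taken from RefSeq on GRCm38.p6 as 250 bases before to 50 bases after each gene start, and the letters CCAAT and CCACG with 9 free bases between them were sought on both strands. They occur in 39 of 32851 promoters (0.119%) and in 8 of the 21 ER genes that have one in that table. All 8 of those genes had a negative log2 difference, with a median of -0.11 against -0.07 for the ER genes without the letters. The search followed the direction of this list, so these 8 say nothing further about it. Of the 6 other tested genes that hold the element, 3 had a negative and 3 a positive difference, beside 54.7% negative over 9814 tested genes with a promoter, and Spats2l was called, lower. The bases of 4 of the ER promoters are shown to let the shared letters be seen, 5′ to 3′ on the strand of the gene, with the fixed letters of the element in capitals (its reverse complement for Creld2):
Pdia6, chr12:17266476-17266524 on the plus strand: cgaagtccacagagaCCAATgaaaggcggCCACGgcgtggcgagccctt
Hspa5, chr2:34772010-34772058 on the plus strand: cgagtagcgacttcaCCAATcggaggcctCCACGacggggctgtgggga
Canx, chr11:50325785-50325833 on the minus strand: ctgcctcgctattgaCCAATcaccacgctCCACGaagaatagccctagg
Creld2, chr15:88819505-88819553 on the plus strand: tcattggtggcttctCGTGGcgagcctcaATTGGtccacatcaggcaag

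In Pdia6, the 1 ER gene that was called, the element begins 98 bases before the gene start. The 250 bases before that start are shown whole, with the element in capitals, so that the sequence around it can be read:
Pdia6, chr12:17266339-17266588 on the plus strand: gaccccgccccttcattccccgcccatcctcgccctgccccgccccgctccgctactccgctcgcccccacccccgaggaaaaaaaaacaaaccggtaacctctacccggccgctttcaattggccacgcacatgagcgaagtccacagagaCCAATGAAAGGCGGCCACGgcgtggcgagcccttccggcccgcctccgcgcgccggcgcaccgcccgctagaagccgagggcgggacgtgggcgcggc
A match to these letters is a description of the window and not a measured binding site. The sterol regulatory element TCACNCCAC, searched in the same way, was found in 408 promoters (1.24%) and in 1 of the 18 cholesterol genes with a promoter there, Hmgcs1.

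Few activity-regulated genes passed the test. Of 16 tested immediate early transcription factors 12 had a negative difference (median -0.13) and Fosl2 alone was called, against 1.29% of all tested genes called lower. Fosl2, a partner of Jun in the AP-1 factor, ranged from 5.99 to 8.15 FPKM in 14-7-2 and from 6.72 to 17.4 FPKM in 0-0-2, a log2 difference of -0.33 ± 0.13. The highest of these values came from replicate 8 of 0-0-2, and the call held without any single library (p up to 0.0324). Fos itself ranged from 2.22 to 5.68 FPKM in 14-7-2 and from 2.72 to 7.85 FPKM in 0-0-2 (log2 difference -0.36, unadjusted p = 0.0773 by limma), and its difference was 0.04 in cohort 1 and -0.76 in cohort 2. Egr1 differed by -0.24 and Npas4 by 0.05, neither called. The list's median ran from -0.21 to -0.03 when each library was left out, and adding the CA1 score as a covariate turned it to 0.03. Of the 25 later activity-induced genes only Spry4 was called (log2 difference -0.15), and leaving out 1 library ended that call in 14 of 20 fits (p up to 0.0886).

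The activin, TGF-β and BMP pathway is of interest because Acvr1c, the type I receptor ALK7 for activin and nodal, is the gene that the study followed up. Acvr1c ranged from 3.91 to 5.90 FPKM (median 4.88) in 14-7-2 and from 2.93 to 5.30 FPKM (median 4.31) in 0-0-2. The ranges overlapped, and 6 of 10 libraries of 14-7-2 lay above the 0-0-2 median. The log2 difference was 0.23 ± 0.11 with a 95% interval from -0.01 to 0.46 (limma unadjusted p = 0.0570, adjusted p = 1). In cohort 1 the difference was -0.08, in cohort 2 it was 0.54, and the change between cohorts of 0.62 was called at the unadjusted threshold (limma p = 0.00408, adjusted p = 0.733). Leaving out replicate 8 of 0-0-2 gave 0.18 (p = 0.116, limma), while leaving out any 1 of 8 other libraries brought it past the unadjusted threshold (lowest limma p = 0.0266), as did quantile normalization (0.25, limma p = 0.0405) and adjustment for the choroid plexus score (0.23, limma p = 0.0459) or, added after seeing the data, the granule cell score (0.20, limma p = 0.0243). The CA1 score, added in the same way, gave 0.14 (limma p = 0.248). In the design's 4 groups the mean was 3.45 FPKM in 0-0-0, 4.15 FPKM in 0-0-2, 4.00 FPKM in 14-7-0 and 4.84 FPKM in 14-7-2. The 0-0-0 mean includes replicate 6, with a granule cell score of -2.83. Over the 21 genes that the study selected, Acvr1c among them, median log2 differences from 0-0-0 were 0.26 in 0-0-2, 0.26 in 14-7-0 and 0.38 in 14-7-2. Without 0-0-0 replicate 6 and 14-7-0 replicate 4 these medians were 0.06, 0.04 and 0.16.

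Of the 42 tested genes of this pathway 2 were called, both higher, against 1.15% of all tested genes called higher, and the list's median log2 difference was -0.02. Tgfb2, a ligand, ranged from 10.6 to 15.7 FPKM in 14-7-2 and from 8.44 to 18.6 FPKM in 0-0-2, where the highest was replicate 9, and differed by 0.25 ± 0.11. Acvr1, the type I receptor ALK2, ranged from 17.0 to 22.8 FPKM in 14-7-2 and from 13.1 to 20.3 FPKM in 0-0-2 and differed by 0.15 ± 0.07. Both calls were narrow: they were lost in 12 and 11 of 20 fits that left out 1 library, with p up to 0.0810 and 0.0806. Inhba, which encodes the activin A subunit, differed by -0.19, the receptor Acvr2a by -0.09 and the mediator Smad3 by 0.07, none of them called.

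Among growth factors, Bdnf ranged from 19.6 to 25.7 FPKM (median 21.1) in 14-7-2 and from 10.7 to 30.1 FPKM (median 21.2) in 0-0-2. The spread in 0-0-2 enclosed all of 14-7-2. Its log2 difference was 0.13 with a 95% interval from -0.16 to 0.41 (limma unadjusted p = 0.366, adjusted p = 1), and 0.03 without replicate 8 of 0-0-2. Against 1.29% of all tested genes called lower, Ntrk2, which encodes TrkB, the receptor for BDNF, was the 1 gene called of 22 in this list. It ranged from 79.5 to 94.9 FPKM in 14-7-2 and from 81.6 to 117 FPKM in 0-0-2, a log2 difference of -0.12 ± 0.05 whose call was lost in 10 of 20 fits without 1 library (p up to 0.0662). Vegfa, an angiogenic factor, differed by -0.17 and was not called.

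The 21 genes that the study selected from these libraries, Acvr1c and Bdnf among them, all had a positive difference, with a median of 0.13 on the log2 scale, and 0 were called. They were picked for being higher than 0-0-0 both in 14-7-2 and in 14-0-0, which had 14 days of running and no delay. Genes that were higher in 0-0-2 or another exercise group were left out, so the direction of the list here is not independent evidence. The median was 0.01 in cohort 1 and 0.26 in cohort 2. Ano3 (0.22), Fgf13 (0.18), Rasgrp1 (0.19) and Sprn (0.11) were among those with the smallest p values. As a score, the list ran from -0.00 to 0.32 in 14-7-2 and from -0.55 to 0.25 in 0-0-2, where replicates 8 (-0.55) and 4 (-0.33) were the lowest. The same 2 libraries had the lowest granule cell scores of 0-0-2, at -0.71 and -0.23, and the part of granule cells in the list's difference was not tested. Without replicate 8 the median was 0.07.

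Receptors and metabolism contributed a few lower genes. Of 25 tested glutamate receptor genes 3 were called, all lower, against 1.29% of all tested genes called lower, while 12 of the 25 were positive and 13 negative (median -0.02). Grik3, a kainate receptor subunit, ranged from 3.96 to 5.8 FPKM (median 4.497) in 14-7-2 and from 4.68 to 14.6 FPKM (median 5.78) in 0-0-2, a log2 difference of -0.47 ± 0.17. All but 1 library of 14-7-2 lay below the 0-0-2 median. Grm3, a metabotropic receptor, differed by -0.17 and Grik1, another kainate subunit, by -0.28, the latter call being lost in 9 of 20 fits (p up to 0.0918). None of 12 GABA-A receptor genes was called by limma. Of all 12994 tested genes 7037 were negative and 1.29% were called lower. Of 24 genes of glucose, lactate and ketone metabolism 3 were called, all lower, while 9 were positive and 15 negative. Among them, Gys1, the glycogen synthase of muscle and brain, differed by -0.15 on the log2 scale, and Acat1, a mitochondrial thiolase, by -0.10, a call that was lost in 11 of 20 fits (p up to 0.0988). The list's median was -0.04.

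Single members of further lists were called, where 1.15% of all tested genes were called higher and 1.29% lower. In the longer lists a single call is near that share. Fkbp4, a co-chaperone of steroid receptors, differed by -0.16 and Rbm3 by 0.23, out of 24 heat and cold shock genes. Arrdc2, a glucocorticoid-responsive gene, differed by 0.27 out of 17, and Ezh1, a histone methyltransferase, by 0.08 out of 45 chromatin genes. Rpl31, a ribosomal protein, differed by -0.13 out of 75. Fkbp4 and Arrdc2 each lost the call in 4 of 20 fits that left out 1 library, Ezh1 in 13 and Rpl31 in 9, with p up to 0.0589, 0.0637, 0.0930 and 0.0773. None of 37 complex I genes and none of 16 genes of adult neurogenesis was called by limma.

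**Figure D4:**
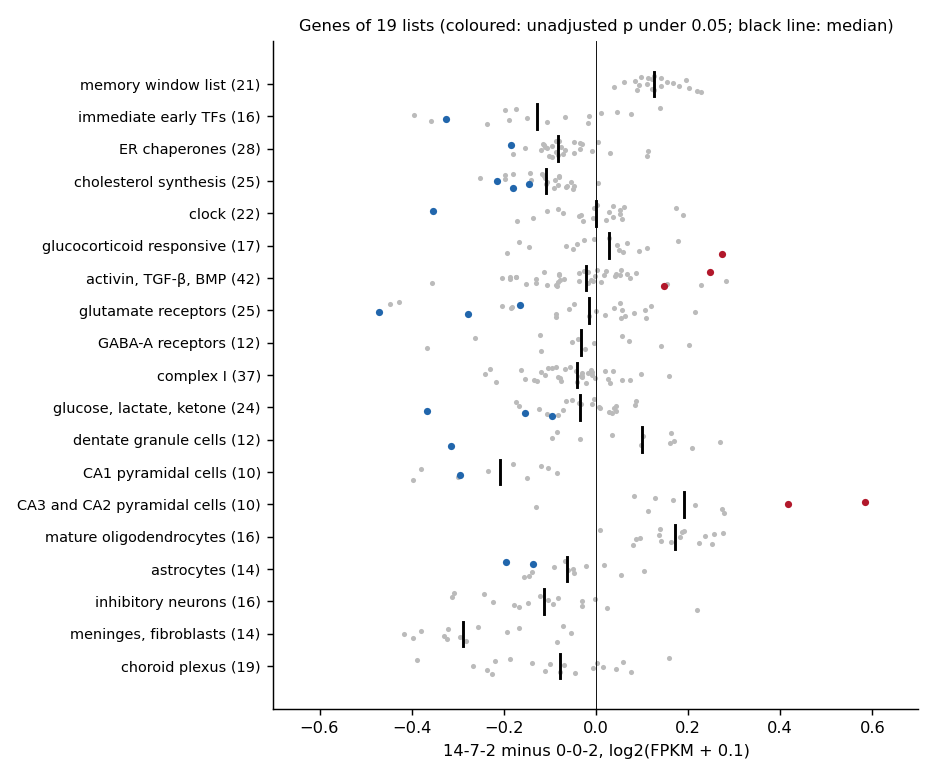
The log2 difference (x axis, 14-7-2 minus 0-0-2, log2(FPKM + 0.1)) of each tested gene in 19 lists (y axis, number of tested genes in brackets); the black line is the list's median and coloured points have an unadjusted limma p under 0.05. Cholesterol genes lie left of 0 in 24 of 25 cases and mature oligodendrocyte genes right of 0 in 16 of 16, while few points in any list are coloured.

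Markers of cell populations differed between the groups by amounts as large as the lists above. All 16 genes of mature oligodendrocytes, which form myelin, had a positive difference with a median of 0.17, and 0 were called. Their summed FPKM ran from 1764 to 4095 in 14-7-2 and from 1588 to 4378 in 0-0-2, with Mbp and Mag differing by 0.14 and 0.18. All 10 CA1 markers, of which Dcn and Nov also stand in the list of meninges and fibroblasts, were negative with a median of -0.21. Lypd1 was called, with 32.5 to 48.1 FPKM in 14-7-2, 36.2 to 68.2 FPKM in 0-0-2 and a log2 difference of -0.29 ± 0.10. Of the CA3 and CA2 markers 9 of 10 were positive with a median of 0.19, and Hs3st4 and Iyd were called. Over all tested genes 1.15% were called higher and 1.29% lower. Iyd, a deiodinase gene, ran from 5.97 to 11.6 FPKM in 14-7-2 and from 0.93 to 8.86 FPKM in 0-0-2, and its call was lost in 14 of 20 fits without 1 library (p up to 0.0855). Of the 12 granule cell markers 8 were positive, with a median of 0.10 (-0.02 without replicate 8 of 0-0-2). Calb1, the calcium-binding protein calbindin, was the 1 marker of that list called and lay the other way, with 27.7 to 48.1 FPKM against 36.1 to 65.9 FPKM and a log2 difference of -0.32 ± 0.12. Calbindin is also made by CA1 pyramidal cells and interneurons.

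Astrocyte markers were lower for 11 of 14 genes, beside 7037 of all 12994 tested genes. The glutamate transporter Slc1a3 (-0.14) and the amino acid transporter Slc7a10 (-0.20) were called, against 1.29% of all tested genes called lower. Those calls were lost in 7 and 8 of 20 fits that left out 1 library, with p up to 0.0653 and 0.0755. All 14 markers of meninges and fibroblasts were negative (median -0.29), as were 13 of 14 endothelial and 14 of 16 inhibitory neuron markers, with 0 called by limma in each. The part of these populations in the differences of single genes was not tested. Adjusting for the choroid plexus score left 258 lower genes in place of 167, and adjusting for the CA1 score left 85 higher genes in place of 149.

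In the 2 harvest cohorts the difference between 14-7-2 and 0-0-2 had the opposite sign for most genes. Within cohort 1 alone 416 genes (3.2%) were called and within cohort 2 alone 524 genes (4.03%). Both cohorts called 33 genes. Of these, 29 had opposite directions, and the 4 with the same direction were Cldn22 and Mir6516 (higher) and Spon1 and Tmem37 (lower). Those 4 were 0.96% of the genes called in cohort 1 and 0.76% of those called in cohort 2. Over all 12994 genes 41.3% had the same sign in both cohorts, and 37.6% to 47.4% when 1 library was left out. Across genes, which are not independent replicates, Spearman's rho between the cohorts' differences was -0.20 (-0.31 to -0.02 when 1 library was left out, the last without replicate 3 of 14-7-2). A direct test of the change between cohorts called 866 genes (6.66%), 578 with a more positive difference in cohort 2 and 288 with a more negative one, and 0 after adjustment by limma, with a smallest adjusted p of 0.733.

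Granule cell markers were among the genes that differed most between the cohorts. Of the 12 markers 7 were called in the test of the change between cohorts, against 6.66% of all tested genes, and their median log2 difference was -0.36 in cohort 1 and 0.47 in cohort 2. Dock10, a guanine nucleotide exchange factor enriched in granule cells, ranged from 10.2 to 16.7 FPKM in 14-7-2 and from 16.1 to 19.7 FPKM in 0-0-2 in cohort 1, while in cohort 2 it ranged from 15.1 to 24.6 FPKM and from 9.58 to 16.7 FPKM. The groups thus changed places. Prox1, the transcription factor that defines granule cells, averaged 20.1 FPKM in 14-7-2 and 24.8 FPKM in 0-0-2 in cohort 1, and 28.6 and 20.5 FPKM in cohort 2. CA1 markers went the other way, with medians of 0.06 and -0.43. Crym, a thyroid hormone binding protein called in opposite directions in the 2 cohorts, averaged 147 and 98.8 FPKM in cohort 1 and 98.9 and 165 FPKM in cohort 2.

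The genes with the smallest p in this test were Slc4a4, a sodium bicarbonate transporter (-0.28 in cohort 1 and 0.25 in cohort 2), Magi1, a scaffold protein of cell junctions (-0.31 and 0.17), and Nudt17, a Nudix hydrolase (0.34 and -0.25). With the granule cell score as a covariate, the genes with a more positive difference in cohort 2 fell in number from 578 to 249. Without replicate 8 of 0-0-2 they numbered 365, and without replicate 3 of 14-7-2 they numbered 366. The same omissions left 19 and 18 genes called in opposite directions in both cohorts, in place of 29.

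**Figure D5:**
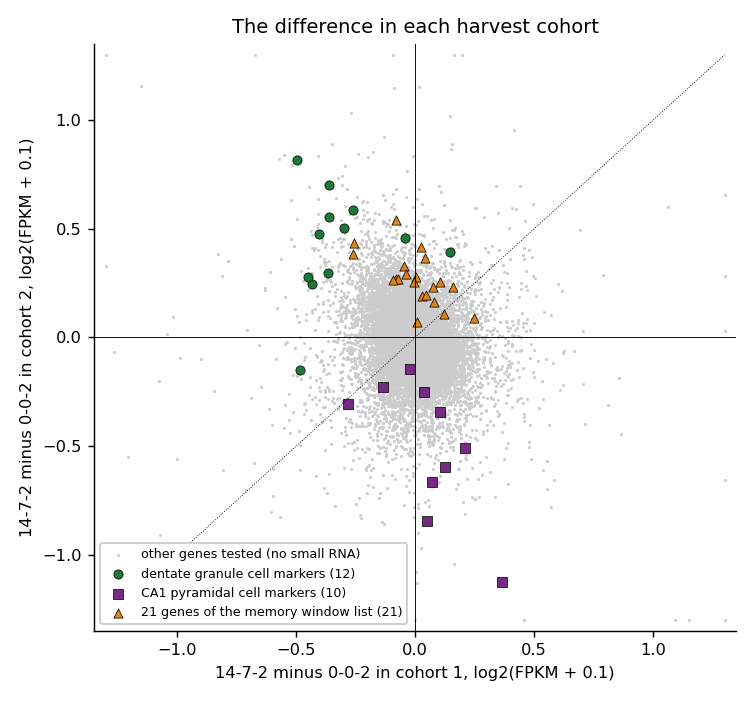
The log2 difference of 14-7-2 minus 0-0-2 in harvest cohort 1 (x axis) and cohort 2 (y axis) on log2(FPKM + 0.1), 5 libraries a group in each, 1 point a gene (grey, values beyond 1.3 in either direction drawn at 1.3, small RNA genes left out); the dotted line marks equal values. Granule cell markers (green) lie mostly at upper left (median -0.36 and 0.47), CA1 markers (purple) low (0.06 and -0.43) and the 21 selected genes (orange) near 0 on the x axis and above 0 on the y axis (0.01 and 0.26).

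Whether prior exercise changed the response to the 2 days of running was tested as an interaction over 40 libraries, (14-7-2 minus 14-7-0) minus (0-0-2 minus 0-0-0). It called 174 genes (1.34%), 58 positive and 116 negative, 0 after adjustment by limma, and 5 and 11 at an unadjusted p under 0.01. Leaving out 0-0-0 replicate 6 and 14-7-0 replicate 4 changed the split to 186 positive and 189 negative. Prior exercise without the 2 days of running, 14-7-0 against 0-0-0, called 424 genes (3.26%). Spon1 had an interaction of -0.33 ± 0.11, Cds1 of -0.40, Nup37 of -0.32 and Fancf of 0.49, all called without adjustment. These genes were named for their difference between 14-7-2 and 0-0-2, which the interaction contains. Their interaction calls are therefore not independent of that choice. For Fancf the odd group was 0-0-2, with a mean of 1.61 FPKM against 2.06 in 0-0-0, 1.99 in 14-7-0 and 2.21 in 14-7-2. The cholesterol list had a median interaction of 0.05 and 0 called genes, the ER list 0.05 and 0, and Acvr1c an interaction of -0.03 ± 0.23.

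The smallest interaction p values belonged to Srgn (-0.47 ± 0.14), the proteoglycan serglycin, Gm9079 (-0.42), Dcdc2a (-0.37), a doublecortin-domain protein, Thtpa (-0.20), a thiamine triphosphatase, and Pcdhgb1 (-0.48), a clustered protocadherin. Srgn averaged 6.09 FPKM in 0-0-0, 7.47 FPKM in 0-0-2, 7.27 FPKM in 14-7-0 and 6.45 FPKM in 14-7-2, with the highest means where a mouse had either bout alone. Pcdhgb1 means were 3.86, 4.64, 5.29 and 4.63 FPKM in the same order.

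Small RNA genes gave the largest differences. Of 99 tested genes of microRNAs, small nucleolar, small Cajal body and small nuclear RNAs 9 were called and all 9 were higher in 14-7-2, where 1.15% of all tested genes were called higher; they were outside the rule for named genes and were chosen after their values were seen. Mir6516 was above 0 in 6 of 10 libraries of 14-7-2, with values from 123 to 260 FPKM, and listed at 0 in all 10 of 0-0-2. It was also above 0 in 5 of 10 libraries of 0-0-0 and in 1 of 10 of 14-7-0. Mir6992 was above 0 in 7 libraries of 14-7-2 and 1 of 0-0-2, and Mir3473g in 5 and 0. In 0-0-0 and 14-7-0 the numbers were 5 and 4 of 10 for Mir6992, and 1 and 1 of 10 for Mir3473g. Mir3473g averaged 6.60 FPKM in 14-7-2, and those libraries are part of the mean that the filter used. Snora28, above 0 in every library of both groups, averaged 336 FPKM in 14-7-2 and 222 FPKM in 0-0-2, a log2 difference of 0.64 with an unadjusted limma p of 0.0197. The remaining 5 were Snora41, Scarna3a and Snora75, listed at 0 in every library of 0-0-2, and Scarna13 and Snord22. Snora41, Scarna3a and Snora75 were each above 0 in 3 of 10 libraries of 0-0-0.

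These values rest on gene models that are short for the assay. The Mir6516 model spans 110 bases at chr11:117077348-117077457 (GRCm38.p6) inside an exon of Snhg20, Mir6992 spans 109 bases at chr19:8742971-8743079 inside an exon of Stx5a, and Mir3473g spans 136 bases at chr2:126902250-126902385 in an intron of Sppl2a. The host genes Snhg20, Stx5a and Sppl2a had log2 differences of 0.04, -0.01 and -0.05 and were not called. Reads were 50 bases long and taken from poly-A RNA, and the mature microRNAs, at 20 to 23 bases, are shorter than a read, so these values do not measure their levels. Small RNA genes above 0 numbered 29 to 48 a library in 14-7-2 (median 40) and 24 to 43 in 0-0-2 (median 36). The mature sequences that RefSeq annotates for the 3 are shown with the seed, bases 2 to 8, in capitals to make clear that no seed is shared and how short they are beside the reads:
mmu-miR-6516-5p: uUUGCAGUaacagguguggaca
mmu-miR-6516-3p: uCAUGUAUgauacugcaaacag
mmu-miR-6992-5p: uGCCUGUGaugguuuggcugagu
mmu-miR-6992-3p: uCUCACUGaugaucauuugcag
mmu-miR-3473g: cAAAAGUGaggcuggggaga
Because the values are either 0 or over 100 FPKM for the first pair of genes, a fold change has no meaning for them and none is given.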

How the data were processed

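RNA from the dorsal hippocampus was made into poly-A libraries and sequenced as 50 bp single reads. According to the study's methods, the authors kept reads that ELAND v2e and Bowtie both placed uniquely in exons or junctions with at most 2 mismatches, and Cuffnorm and the build mm10 are named in the submitters' processing notes. The deposited table holds FPKM values per gene, normalized by the authors, for 70 libraries, with no counts. The table itself gives depth only in relative terms, read totals that the study lists by lane and adapter were not used here, and intervals cover the spread between libraries.

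Values were used as log2(FPKM + 0.1), for genes averaging at least 1 FPKM over all 70 libraries, and tested with limma 3.58.1 (trend) in R 4.3.3, 14-7-2 against 0-0-2 alone for the main comparison. A gene was called at an unadjusted p under 0.05, as in the study, and Benjamini-Hochberg values are given beside it. The labels do not name the animals, so p-values measure the spread between libraries. Named genes were the 15 of smallest p in each direction without small RNA genes, up to 4 called genes of each of 31 lists, Acvr1c and Bdnf, the 5 of smallest p in the interaction, the 3 of smallest p in the cohort test and the leading markers of each cell type; members of 4 lists (the 21 selected genes, immediate early, ER and cholesterol genes) could be named freely. The comparison and the lists were chosen with earlier results of these data known. A few other genes (Crym, Prox1, Inhba, Acvr2a, Smad3, Vegfa and the small RNA genes) were named after their values were seen. Alternatives were another pseudocount, filter, scaling, test and covariate, each cohort alone and each library left out. A few genes that these rules name are not reported here. The scripts were tested on simulated data. Sequences and positions come from RefSeq tables on GRCm38.p6, the build of mm10. Figures used matplotlib 3.10.9.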

Additional observations from a re-analysis of the deposited data

Results flagged for a closer look

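In a group of 10 libraries a value was singled out when its gap to the nearest other library, as a share of the group's range, was above Dixon's 95% critical value for 10 values. Of 190 sets of 10 values examined, 23 met this, where chance gives about 1 in 20, or 9.5. In 14-7-2 the shares were 0.618 for Cldn22 (replicate 3), 0.492 for Ttc7 and 0.566 for Cd151, and 0.492 for Gm9079. In 0-0-2 they were 0.528 for Lsm11, 0.622 for BC052040, 0.6255 for Fosl2 (replicate 8), 0.539 for Tgfb2 (replicate 9), 0.571 for Ntrk2, 0.563 for Fkbp4, 0.499 for Acat1, 0.645 for Iyd (replicate 8) and 0.478 for Slc4a4 (replicate 8). Without replicate 8 of 0-0-2, which held the low Iyd value of 0.93 FPKM and the high Fosl2 value of 17.4 FPKM, both genes kept their direction.

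Among list scores, the shares were 0.536 for heat and cold shock, 0.482 for ribosomal proteins, 0.485 for choroid plexus, 0.491 for CA3 and CA2, 0.622 for thalamus and 0.499 for blood in 14-7-2. In 0-0-2 they were 0.598 for glucocorticoid-responsive genes, 0.484 for ribosomal proteins, 0.524 for CA3 and CA2 and 0.511 for thalamus. The libraries numbered 9 held the ribosomal protein values of both groups (-0.56 and -0.41, the lowest) and the choroid plexus value of 14-7-2 (3.13, the highest). Replicate 8 of 0-0-2 held the CA3 and CA2 value (-0.73).

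The interaction of prior exercise with the 2 days of running was called without adjustment for Fancf (0.49), Spon1 (-0.33), Nup37 (-0.32), Cds1 (-0.40), Srgn (-0.47), Gm9079 (-0.42), Dcdc2a (-0.37), Thtpa (-0.20) and Pcdhgb1 (-0.48), as log2 interactions, each with an adjusted limma p of 1. Fancf, Spon1, Nup37 and Cds1 were named for their main difference, which the interaction contains. The others were named for the interaction itself, so none of these calls is independent of the choice. A difference that changed between harvest cohorts, cohort 2 minus cohort 1, was called for Stc1 (0.48), Cds1 (-0.43), Pdia6 (-0.29), Acvr1c (0.62), Slc4a4 (0.54), Magi1 (0.48) and Nudt17 (-0.59), with adjusted limma p values of 0.733 to 0.743. None of these passed adjustment.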

How the results depend on the processing

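No alternative called a gene after adjustment (lowest adjusted p 0.318 with Cyber-T, 0.948 when 1 library was left out), so the counts that follow are of unadjusted calls, and the FPKM table gives no read depth to weight them by. The 149 higher genes became 305 without a filter, 76 in a joint fit of 7 groups, 94 with Cyber-T, 324 in cohort 2 alone, 85 with the CA1 score (added after seeing the data) and 24 at p under 0.01. The 167 lower genes became 282 without a filter, 98 at a minimum of 5 FPKM, 258 with the choroid plexus score, 99 with Cyber-T and 17 at p under 0.01. With the replicate number as a block the counts were 288 higher and 419 lower. These are 707 in either direction, where the threshold alone would pass 649.7. The numbers were not taken as pairs, since the labels tie no same-numbered libraries together beyond the harvest cohort. Of 10 such pairs 6 correlated above 0.1 (from -0.05 to 0.70), and 5 of 10 libraries correlated best with their own number. That is a hint of pairing from the data, so the unpaired counts depend on leaving it aside. Harvest cohort as a covariate gave 147 and 164. Leaving out 1 library gave 110 to 195 higher and 121 to 254 lower, the last without replicate 9 of 0-0-2. The interaction became 186 positive and 189 negative without 0-0-0 replicate 6 and 14-7-0 replicate 4, 77 negative at a minimum of 5 FPKM, and 5 and 11 at p under 0.01. The change between cohorts, in settings added after seeing the data, became 249 positive with the granule cell score and 462 negative without both libraries numbered 9, and ranged from 365 (without replicate 8 of 0-0-2) to 807 positive and from 181 (without replicate 3 of 14-7-2) to 490 negative (without replicate 9 of 0-0-2) when 1 library was left out. Genes called in both cohorts then ranged from 2 to 12 in the same direction and from 14 to 48 in opposite directions. Acvr1c (-0.082) and Bdnf (-0.039) reversed in cohort 1 alone. Of 54 called named genes, 40 were called whichever library was left out and Spon1 alone was called in every setting. The cause of these shifts was not tested.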
